A study of Mus musculus with 9 samples.

Results

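A set of 10 genes of heme and iron handling was followed through hindlimb unloading and reloading of mouse gastrocnemius, a calf muscle. They are Flvcr1, Hmox1, Alas1, Alas2, Fech, Slc40a1, Tfrc, Fth1, Ftl1 and Mb, 10 of the 55487 genes in the count table, and each symbol was matched to a single Ensembl gene. All 10 passed the filter on low counts, as did 14851 genes of the table. Flvcr1 was chosen by its measured counts in these libraries, high in Unloading and low again in Reloading. Its levels are therefore given as a description, with no test.

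RNA was taken from 9 muscles, 1 library each. The 4 Control mice stayed in conventional cages, the 2 Unloading mice had 10 days of tail suspension that kept weight off the hind legs, and the 3 Reloading mice had the same 10 days followed by 1 day of normal cage activity. All groups were wild-type mice, C57BL/6 in the labels and C57BL/6J in the study's text, recorded as male in the labels, while the methods section names females for the suspension. Their age is not given in the sources used here, and suspended mice were kept 2 to a cage, so that libraries of suspended mice may share a cage. Whole muscle was used, so that fewer cells of a type and less RNA per cell cannot be told apart in any value below.

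Heme is an iron-containing ring that muscle builds into myoglobin and the cytochromes of the respiratory chain. Its synthesis starts in mitochondria with aminolevulinate synthase (Alas1, or Alas2 in red cell precursors) and ends with ferrochelatase (Fech). Heme leaves cells through the exporter encoded by Flvcr1, which is also known as a choline transporter, or it is broken down by heme oxygenase 1 (Hmox1) to free its iron. Iron enters through the transferrin receptor (Tfrc), is stored in a shell of ferritin heavy (Fth1) and light (Ftl1) chains and leaves through ferroportin (Slc40a1).

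Several of these mRNAs carry an iron responsive element, a short hairpin bound by the iron regulatory proteins Aco1 and Ireb2 when iron is scarce. Binding before the coding part blocks translation, and binding after it protects the mRNA from decay. These hairpins are shown because they divide the members into mRNAs regulated in translation and an mRNA regulated in stability. The untranslated parts of GENCODE M21 transcripts (GRCm38) of 9 members, all but Fech, were searched on the transcript strand for a C, 5 bases, the loop CAGTG with any base after it, and 5 bases able to pair with the first 5, with G–T pairs allowed. Such letters were found in 5 of the 9 members. Of 21901 coding genes, 0.142% held a match before the coding part and 0.589% after it. Each line gives 29 bases, 5′ to 3′, with the loop in capitals.
Fth1, before the coding part, chr19:9982732-9982760, plus strand: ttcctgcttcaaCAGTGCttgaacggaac
Ftl1, before the coding part, chr7:45459779-45459807, minus strand: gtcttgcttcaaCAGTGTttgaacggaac
Slc40a1, before the coding part, chr1:45925465-45925493, minus strand: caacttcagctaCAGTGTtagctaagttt
Alas2, before the coding part and joined across an intron, chrX:150547458-150552149, plus strand: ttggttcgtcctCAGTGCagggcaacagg
Tfrc, after the coding part, chr16:32631219-32631247, plus strand: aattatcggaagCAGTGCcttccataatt
Tfrc, after the coding part, chr16:32631598-32631626, plus strand: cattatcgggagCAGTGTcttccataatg
Tfrc, after the coding part, chr16:32631663-32631691, plus strand: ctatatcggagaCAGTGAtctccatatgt
Tfrc, after the coding part, chr16:32631710-32631738, plus strand: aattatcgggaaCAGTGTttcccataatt

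Tfrc held 4 such matches, all after its coding part, and those of the other members were single and lay before theirs. A hairpin outside this pattern would be missed, and folding of the RNA was not tested. Flvcr1, Hmox1, Alas1 and Mb held no match in the parts searched, which says only that these letters are not there. Read counts give mRNA levels, and neither translation nor binding of the regulatory proteins was measured.

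The libraries held 9252443 to 19612101 read pairs assigned to genes. Levels are counts per 1000000 read pairs (CPM) after TMM scaling, which corrects for the make-up of each library, and 1 read pair was worth 0.0545 to 0.113 CPM. The TMM factors were 0.928 to 0.960 in Control and Unloading and 1.11 to 1.13 in Reloading. With library totals alone, the median log2 fold change of all genes moved from 0.03 to 0.27 for Reloading against Unloading and from 0.01 to 0.25 for Reloading against Control. The 10 markers of muscle fibres, such as Acta1 and Ckm, summed to 193600 to 210000 CPM in Control, 208900 to 212600 in Unloading and 142400 to 156900 in Reloading, so that the labelled tissue was seen in all 9 libraries. The 10 macrophage markers summed to 80.2 to 101 CPM in Control, 83.2 to 84.6 in Unloading and 170 to 192 in Reloading. All 10 passed the test as higher in Reloading than in Unloading, as did 18.5% of all genes. Endothelial markers summed to 174 to 210, 183 to 189 and 303 to 381 CPM in the same order. The 10 skin markers summed to 304 CPM in Control 2 and 139 in Reloading 1, against at most 5.91 in each other library. The part of these cell types in the results below was not tested, except where a value without a library is given.

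Of the 9 members other than Flvcr1, 3 were higher and 4 lower in Reloading than in Unloading, called by an adjusted p under 0.05 in edgeR's quasi-likelihood test on the whole table. Across all genes tested 37.5% were called in this comparison, 18.5% higher and 19.0% lower. Unloading against Control called 0 members higher and 3 lower, where 9.90% of all genes were called, 4.40% higher and 5.50% lower. Reloading against Control called 2 members higher and 5 lower, where 43.5% of all genes were called, 22.1% higher and 21.3% lower. Reloading thus moved much of the transcriptome, and the number of members called is to be read against that. All 3 comparisons share libraries: the Unloading libraries enter the first 2 and the Control libraries the last 2. The 1470 genes called in Unloading against Control came to 120 without Unloading 1 and to 947 without Control 3, and without Unloading 1 the members called were 1 in this comparison and 5 in Reloading against Unloading. Leaving out Control 2 and Reloading 1 together left the counts of members called at 7, 3 and 7 for the 3 comparisons in the order given.

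**Figure D1:**
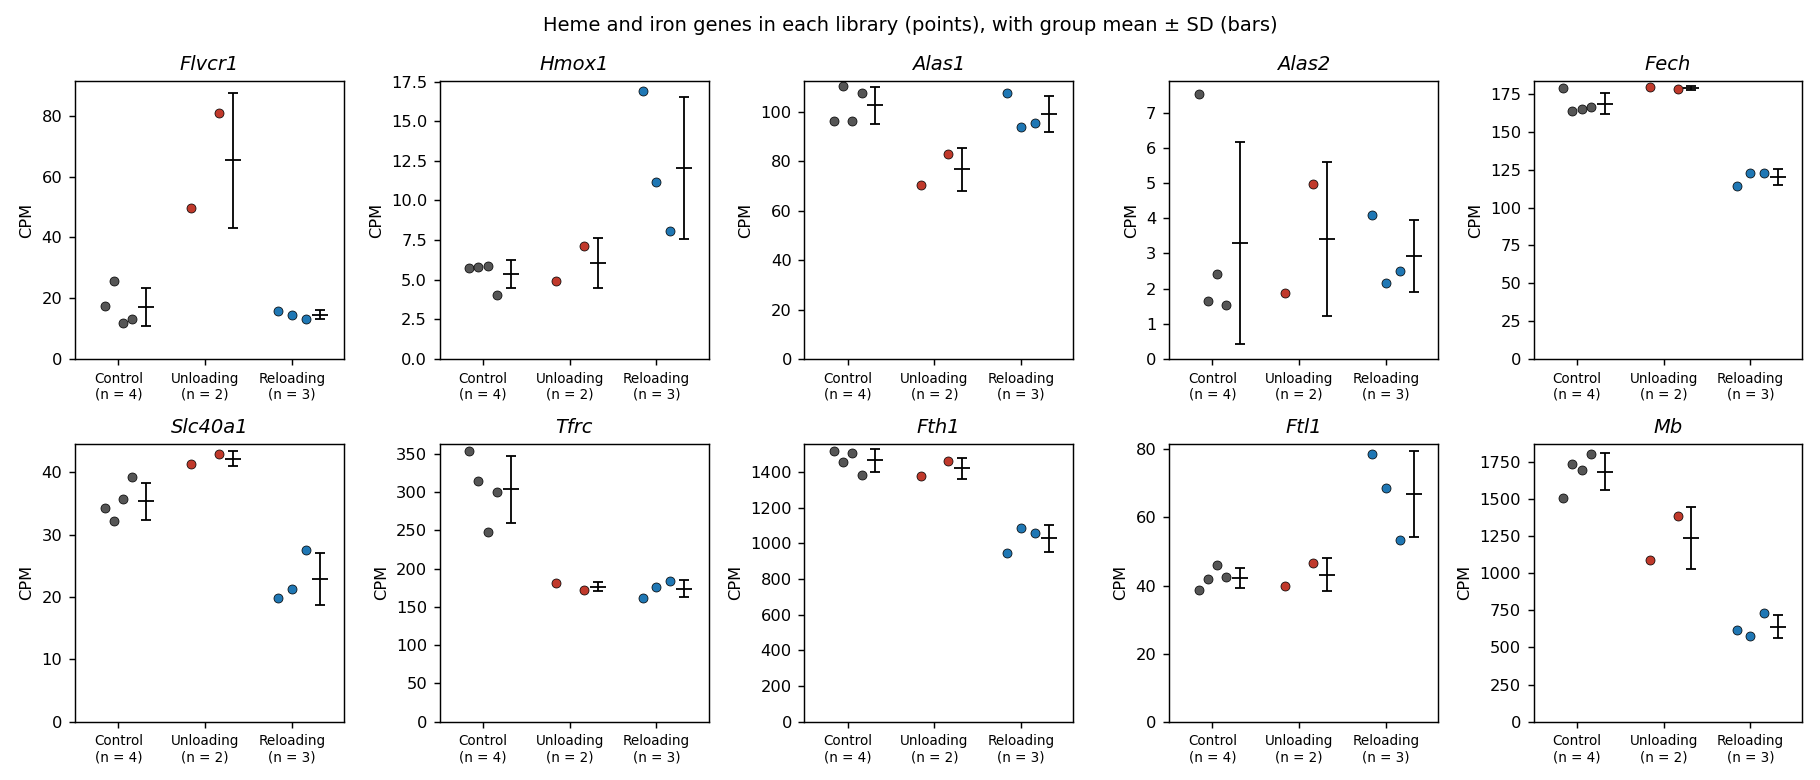
CPM (TMM-scaled) of the 10 members in each library, with points for libraries and bars for the group mean ± SD of 4 Control, 2 Unloading and 3 Reloading libraries. Flvcr1 stands at 49.5 and 81.1 in Unloading against at most 25.7 elsewhere, Tfrc is low in Unloading and in Reloading, and Mb, Fth1, Fech and Slc40a1 are lowest in the 3 Reloading libraries.

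Flvcr1 (ENSMUSG00000066595, GRCm38 chromosome 1, 191005847 to 191026158, minus strand) encodes the heme exporter. It had 155, 310, 166 and 153 read pairs in Control 1 to 4, 663 and 1486 in Unloading 1 and 2, and 198, 202 and 197 in Reloading 1 to 3. In CPM these were 17.4, 25.7, 11.8 and 13.1 in Control, 49.5 and 81.1 in Unloading, and 15.9, 14.6 and 13.0 in Reloading. Both Unloading libraries lay above every other library, and the Reloading libraries lay within the range of Control. The Control mean was 17.0 ± 6.24 CPM (SD, n = 4), the Unloading mean 65.3 ± 22.3 (SD, n = 2) and the Reloading mean 14.5 ± 1.45 (SD, n = 3).

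The Flvcr1 level was 3.87-fold higher in Unloading than in Control, a log2 fold change of 1.95 (SE 0.224). From Unloading to Reloading it was 4.53-fold lower, a log2 fold change of -2.18 (SE 0.243). Only 9 of the 14851 genes tested had a larger log2 rise in Unloading against Control, and only 9 had a larger log2 fall in Reloading against Unloading, which describes the choice of the gene. Reloading against Control was -0.23 (SE 0.231), with overlapping groups. Without the libraries with skin markers, Control 2 and Reloading 1, the log2 fold changes were 2.24 in Unloading against Control and -2.25 in Reloading against Unloading. The order of the groups was Unloading first, with Control and Reloading not separated beyond their spread. A gene overlaps Flvcr1 on the other strand, A230020J21Rik, with at most 3 counts in a library.

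Among 9856 genes with a symbol and a mean log2 CPM of at least 2, the gene whose log2 CPM followed Flvcr1 most closely over the 9 libraries was Chac1 (Pearson r = 0.976), which encodes an enzyme that degrades glutathione. The libraries are the only points behind this value, and groups and depth are shared by both genes. Chac1 had 57.6, 103.5, 37.5 and 35.6 CPM in Control, 135 and 231 in Unloading, and 44.6, 48.5 and 31.9 in Reloading. As for Flvcr1, Control 2, a library with skin markers, was the highest Control library and Unloading 2 the higher Unloading library. Chac1 was picked for its likeness to Flvcr1, so this match comes with the choice. The next were Gcnt2 (r = 0.959), a glycosyltransferase gene, Gsn (r = 0.952), which encodes the actin-severing protein gelsolin, Crebbp (r = 0.944), a histone acetyltransferase gene, and Rnase4 (r = 0.942), a ribonuclease gene. Their log2 fold changes were smaller than those of Flvcr1 and Chac1. In Unloading against Control they were 0.57 for Gcnt2, 0.59 for Gsn, 0.42 for Crebbp and 0.52 for Rnase4, beside 1.65 for Chac1. The r of the other members with Flvcr1 ran from -0.67 for Alas1 to 0.53 for Slc40a1.

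Within 250 kb of Flvcr1 on the chromosome, 7 other genes passed the filter. Of these 7, 0 were called in Unloading against Control by edgeR's quasi-likelihood test or by DESeq2, where edgeR called 9.90% of all genes. The log2 fold changes in this comparison were above 0 for Angel2 (0.19), Atf3 (0.64), D730003I15Rik (0.69), Tatdn3 (0.13) and Nsl1 (0.66). For Rps6kc1 (-0.18) and Vash2 (-0.28) they were below 0. Atf3, a stress-response transcription factor 144 kb away, had 1.58 to 3.68 CPM in Control, 3.96 and 4.04 in Unloading, and 212, 220 and 157 in Reloading, a log2 fold change of 5.61 (SE 0.202, edgeR adjusted p = 1.44e-10) in Reloading against Unloading. Vash2, an angiogenesis gene 26.6 kb away, had 0.856 to 1.43 CPM in Control, 0.927 and 1.05 in Unloading, and 3.70 to 4.98 in Reloading. Its log2 fold change was 2.13 (SE 0.273, edgeR adjusted p = 3.24e-05). Both rose in the comparison in which Flvcr1 was lower. Angel2 (-0.42) and Tatdn3 (-0.43) fell in it, and Rps6kc1, Nsl1 and D730003I15Rik were not called.

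**Figure D2:**
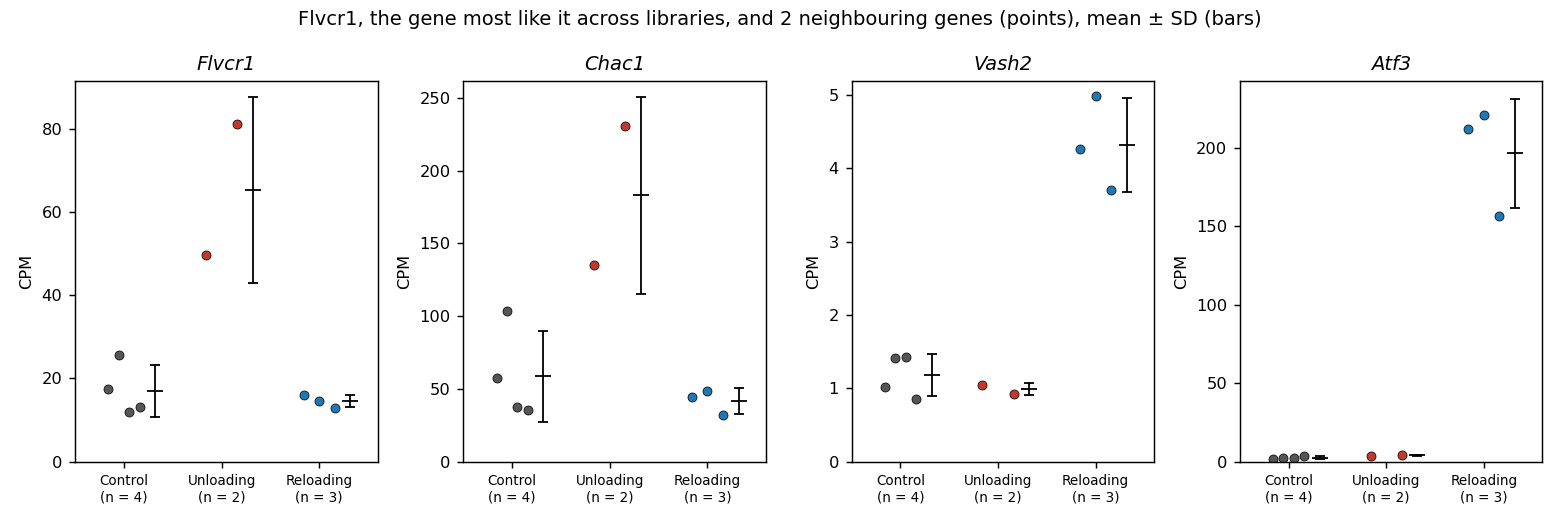
CPM of Flvcr1, of Chac1, the gene most like it over the 9 libraries, and of its neighbours Vash2 and Atf3, with points for libraries and bars for the group mean ± SD. Flvcr1 and Chac1 are highest in the 2 Unloading libraries, while Vash2 and Atf3 are highest in the 3 Reloading libraries.

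Heme synthesis genes had smaller log2 fold changes than Flvcr1 in Unloading against Control and in Reloading against Unloading, the comparisons by which Flvcr1 was chosen. In Reloading against Control some were larger, such as Fech at -0.49 beside Flvcr1 at -0.23. Alas1 (ENSMUSG00000032786, chromosome 9), the rate-limiting first enzyme outside red cells, had 96.2, 110.3, 96.1 and 107 CPM in Control, 70.5 and 82.9 in Unloading, and 107.5, 94.0 and 95.5 in Reloading. Both Unloading libraries were below all other libraries. Alas1 fell in Unloading against Control by 0.42 on the log2 scale (SE 0.0922, edgeR adjusted p = 0.0117) and rose in Reloading against Unloading by 0.37 (SE 0.0963, edgeR adjusted p = 0.00793). Reloading and Control overlapped (log2 fold change -0.05, edgeR adjusted p = 0.633). Both Alas1 calls depended on Unloading 1. Without it the log2 fold change was -0.31 (edgeR adjusted p = 0.210) against Control and 0.26 (edgeR adjusted p = 0.108) for Reloading against Unloading. With library totals in place of TMM the rise in Reloading against Unloading was 0.61 (edgeR adjusted p = 1.14e-04).

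Fech (ENSMUSG00000024588), which inserts iron into the ring, followed another course. It had 179, 164, 165 and 166 CPM in Control, 179.8 and 178 in Unloading, and 114, 123 and 123 in Reloading. The Reloading libraries were below all others, and Unloading and Control overlapped. Fech fell in Reloading against Unloading by 0.57 (SE 0.0729, edgeR adjusted p = 2.95e-05) and in Reloading against Control by 0.49 (SE 0.0625, edgeR adjusted p = 1.88e-05). It was not called in Unloading against Control (0.09, edgeR adjusted p = 0.468). With library totals in place of TMM these falls were 0.33 (edgeR adjusted p = 0.00271) and 0.25 (edgeR adjusted p = 0.00429). The first and last steps of the pathway were called in different directions in Reloading against Unloading.

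Alas2 (ENSMUSG00000025270, chromosome X), the form used by red cell precursors, was near the lower end of what these libraries can count, with 18 to 91 read pairs. It had 7.54, 1.66, 2.42 and 1.54 CPM in Control, 1.87 and 4.96 in Unloading, and 4.10, 2.17 and 2.51 in Reloading. No comparison called it (edgeR adjusted p = 0.704 to 0.888), and the groups overlapped in all 3. The 9 matched red cell markers, hemoglobin genes among them, summed to 165, 56.1, 63.6 and 50.5 CPM in Control, 65.5 and 115 in Unloading, and 134, 72.6 and 54.8 in Reloading. Control 1, Unloading 2 and Reloading 1 were the highest of their groups in both. Apex2 overlaps Alas2 on the other strand with 38 to 101 counts, and the counting did not use strand.

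Of the 15 heme synthesis genes on a wider list of 93 heme and iron genes, all 15 were tested. In Reloading against Unloading 2 were called higher and 3 lower, in Unloading against Control 0 and 3, and in Reloading against Control 0 and 5. This is 33.3%, 20.0% and 33.3% of the 15, beside 37.5%, 9.90% and 43.5% of all genes. The median log2 fold changes were -0.09, -0.10 and -0.21, beside 0.03, -0.0038 and 0.01 for all genes. Slc25a39, a mitochondrial carrier for glutathione, moved like Alas1. It averaged 35.1 ± 4.59 CPM in Control, 26.1 ± 4.86 in Unloading and 41.0 ± 2.81 after Reloading (SD over 4, 2 and 3 libraries, as in the group means below). It fell in Unloading by 0.43 (SE 0.125) and rose in Reloading against Unloading by 0.64 (SE 0.129). Clpx, a mitochondrial chaperone that activates aminolevulinate synthase, moved like Fech. It had 81.5 ± 4.25, 84.9 ± 7.43 and 56.9 ± 2.66 CPM and fell in Reloading against Unloading by 0.58 (SE 0.0831). Urod, an enzyme of the middle of the pathway, fell in the same comparison by 0.40 (SE 0.0978). Tmem14c, a mitochondrial porphyrin carrier, fell in Unloading against Control by 0.34 (SE 0.0791), and Uros, another enzyme of the pathway, fell in Reloading against Control by 0.45 (SE 0.0991).

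Hmox1 (ENSMUSG00000005413, chromosome 8), the inducible enzyme that opens the heme ring, was the member with the largest rise in Reloading. It had 5.74, 5.79, 5.85 and 4.03 CPM in Control, 4.93 and 7.15 in Unloading, and 16.9, 11.2 and 8.07 in Reloading. All Reloading libraries were above all others, with Reloading 1, a library with skin markers, the highest. Hmox1 rose in Reloading against Unloading by 0.97 (SE 0.257, edgeR adjusted p = 0.00839) and in Reloading against Control by 1.16 (SE 0.221, edgeR adjusted p = 6.04e-04). The value in Unloading against Control was not called (0.19, edgeR adjusted p = 0.694). Without Unloading 1 the rise over Unloading was 0.74 and lost the call (edgeR adjusted p = 0.0917). Over 18 alternatives the rise over Unloading ran from 0.65 to 1.275. Macrophages recycle red cell iron with heme oxygenase 1, and their summed markers were 170, 192 and 174 CPM in Reloading 1 to 3. Endothelial markers summed to 381, 320.5 and 303 CPM in the same libraries. The part of either cell type in the rise was not tested.

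Among the 4 heme breakdown genes on the list, Hmox1 was the only call in Reloading against Unloading, 25.0% beside 37.5% of all genes. Blvra, which reduces the biliverdin that heme oxygenase makes, fell in Reloading against Control by 0.38 (SE 0.122). Of the 9 genes of heme transport and binding tested beside Flvcr1, 2 were called higher and 0 lower in Reloading against Unloading. This is 22.2%, beside 37.5% of all genes, and in Unloading against Control it was 11.1% beside 9.90%. Hp, which encodes the hemoglobin scavenger haptoglobin, had 10.8 ± 5.15 CPM in Control, 10.1 ± 2.58 in Unloading and 33.5 ± 17.7 in Reloading, a rise of 1.75 (SE 0.416) over Unloading. Abcg2, a membrane pump that also carries porphyrins, rose by 0.61 (SE 0.121). Lrp1, the receptor for heme bound to hemopexin, was the 1 gene of this group called in Unloading against Control, with a rise of 0.34 (SE 0.0882), and rose in Reloading against Control by 0.58 (SE 0.0783). Flvcr2, the closest relative of Flvcr1, and Hpx did not pass the filter on low counts.

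**Figure D3:**
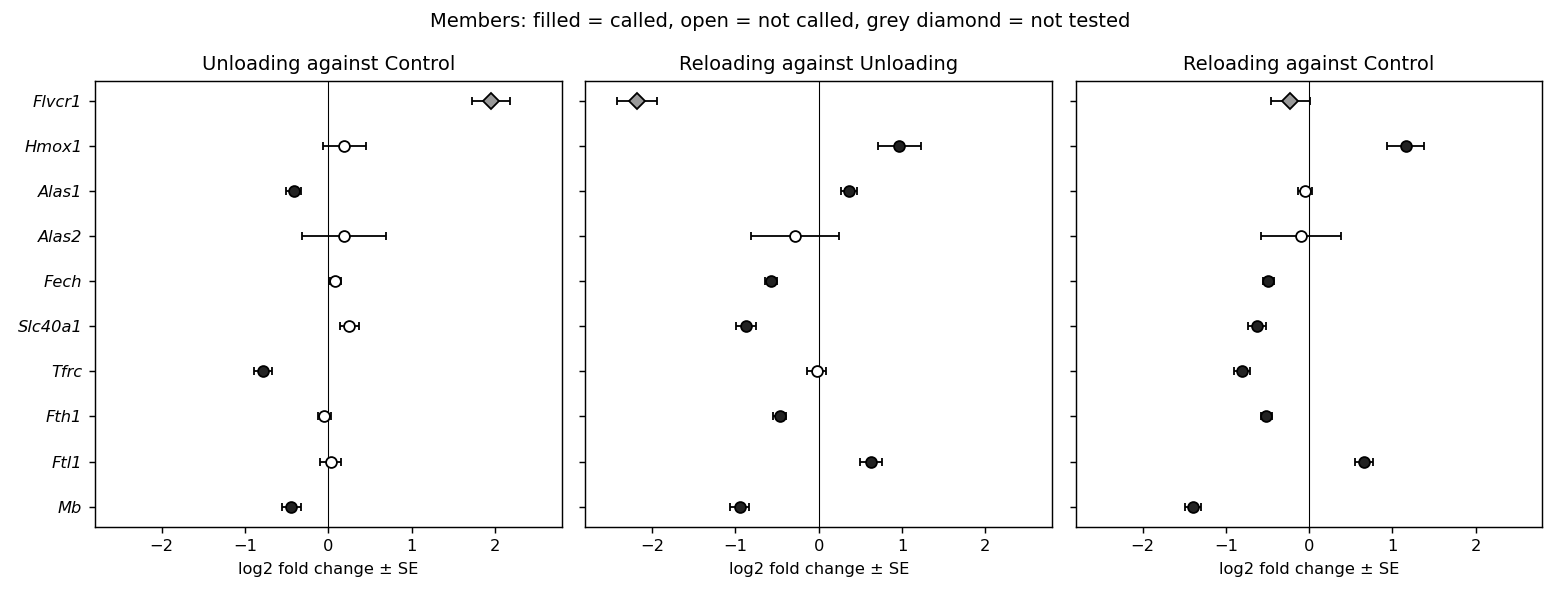
Log2 fold changes of the 10 members with SE in the 3 comparisons, with filled circles for members called at an adjusted p under 0.05, open circles for members not called and a grey diamond for Flvcr1, which was not tested. Tfrc lies at -0.78 and -0.80 against Control and at -0.02 in Reloading against Unloading, and Fth1 and Ftl1 lie on opposite sides of 0 in the comparisons with Reloading.

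Tfrc (ENSMUSG00000022797, chromosome 16), whose mRNA held 4 matches to the hairpin pattern after its coding part, encodes the receptor that brings in transferrin-bound iron. It was lower than in Control both in Unloading and in Reloading. It had 353.5, 314, 248 and 299.6 CPM in Control, 181 and 172 in Unloading, and 162, 176 and 183 in Reloading. Every Control library was above every other library, and Unloading and Reloading overlapped. Tfrc fell in Unloading against Control by 0.78 (SE 0.111, edgeR adjusted p = 9.28e-04) and in Reloading against Control by 0.80 (SE 0.0969, edgeR adjusted p = 1.05e-05). Reloading against Unloading was -0.02 (SE 0.114, edgeR adjusted p = 0.899). It was the one member called in Unloading against Control whichever library was left out.

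Slc40a1 (ENSMUSG00000025993, chromosome 1), the only known iron exporter of cells, had 34.2, 32.3, 35.8 and 39.2 CPM in Control, 41.3 and 43.0 in Unloading, and 19.8, 21.4 and 27.6 in Reloading. The 3 groups did not overlap, with Unloading highest and Reloading lowest. Slc40a1 fell in Reloading against Unloading by 0.88 (SE 0.120, edgeR adjusted p = 5.85e-05) and in Reloading against Control by 0.62 (SE 0.106, edgeR adjusted p = 2.33e-04). Unloading against Control was 0.25 (SE 0.112, edgeR adjusted p = 0.169) and was not called. With library totals in place of TMM the fall from Control was 0.38 (edgeR adjusted p = 0.00565). Macrophages express ferroportin too, and their markers summed to 80.2 to 101 CPM in Control, 83.2 to 84.6 in Unloading and 170 to 192 in Reloading. Their part in the fall was not tested.

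Fth1 (ENSMUSG00000024661, chromosome 19), the ferritin chain that oxidizes iron, had 1518, 1455, 1508 and 1380 CPM in Control, 1377 and 1461 in Unloading, and 943, 1083 and 1055 in Reloading. Ftl1 (ENSMUSG00000050708, chromosome 7), the chain that helps form the iron core, had 38.6, 42.0, 45.9 and 42.4 CPM in Control, 39.8 and 46.5 in Unloading, and 78.5, 68.7 and 53.3 in Reloading. Fth1 was lowest and Ftl1 highest in the Reloading libraries, with no overlap with either other group. Fth1 fell in Reloading against Unloading by 0.47 (SE 0.0790, edgeR adjusted p = 3.40e-04) and Ftl1 rose by 0.63 (SE 0.132, edgeR adjusted p = 0.00178). Against Control the values were -0.51 (edgeR adjusted p = 2.42e-05) for Fth1 and 0.66 (edgeR adjusted p = 2.06e-04) for Ftl1. With library totals in place of TMM the falls of Fth1 were 0.22 (edgeR adjusted p = 0.0401) from Unloading and 0.27 (edgeR adjusted p = 0.00367) from Control. Neither gene was called in Unloading against Control, at -0.05 and 0.03 (edgeR adjusted p = 0.748 and 0.910).

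Both ferritin mRNAs hold the hairpin before the coding part, shown above, and their levels moved in opposite directions in Reloading. That hairpin acts on translation, which was not measured. The ratio of Fth1 to Ftl1, each in CPM per kb of exon length, averaged 13.5 ± 1.20 (SD, n = 4) for Control, 12.8 ± 0.884 (SD, n = 2) for Unloading and 6.13 ± 1.50 (SD, n = 3) for Reloading. By library it was 15.2, 13.4, 12.7 and 12.6 in Control, 13.4 and 12.1 in Unloading, and 4.64, 6.09 and 7.65 in Reloading. The Reloading libraries lay below all others, and no test of the ratio was made. Its level also rests on the annotated exon lengths, 3469 bases for Fth1 and 1340 for Ftl1, which are the same for every library. Processed pseudogenes share sequence with both genes. Fth-ps2, Fth-ps3 and Fth1-ps together took 0.834% to 1.63% of the counts of Fth1 and these pseudogenes, Ftl1-ps1, Ftl1-ps2 and Ftl2-ps took 2.29% to 4.51% of those of Ftl1, and reads that fit several copies may be lost from either, so that the level of the ratio is uncertain. With pseudogene counts added, all 6 values for Fth1 and Ftl1 kept their direction and their calls.

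**Figure D4:**
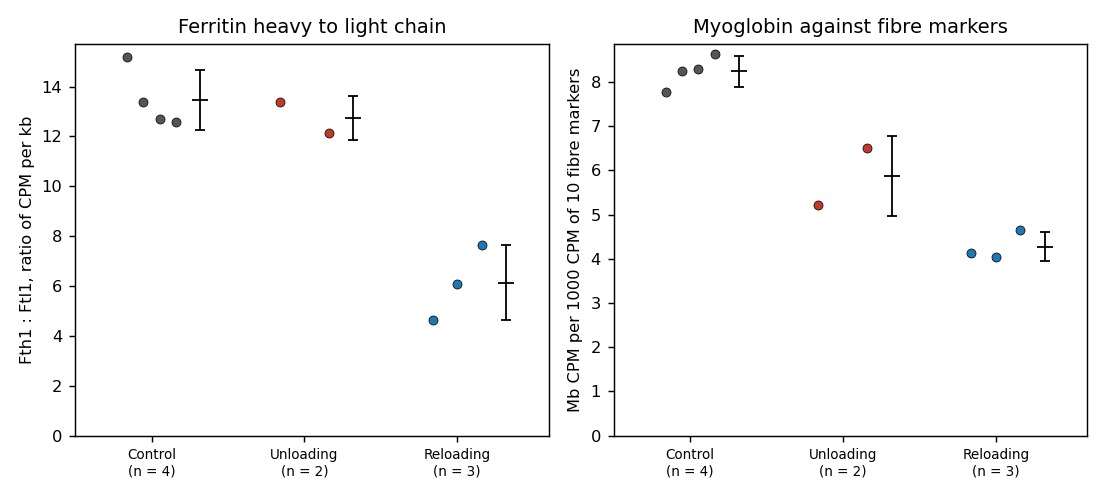
On the left the ratio of Fth1 to Ftl1 in CPM per kb, on the right Mb in CPM per 1000 CPM of 10 muscle fibre markers, with points for libraries and bars for the group mean ± SD. The ferritin ratio is 4.64 to 7.65 in Reloading against 12.1 to 15.2 elsewhere, and the myoglobin values go from 7.78 to 8.62 in Control to 5.22 and 6.51 in Unloading and 4.05 to 4.65 in Reloading.

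Mb (ENSMUSG00000018893, chromosome 15) encodes myoglobin, the heme protein that stores oxygen in slow and oxidative fibres. It had 1506, 1733, 1693 and 1799 CPM in Control, 1091 and 1383 in Unloading, and 614.5, 576 and 729 in Reloading. The 3 groups did not overlap, with Control highest and Reloading lowest. Mb fell in Unloading against Control by 0.44 (SE 0.110, edgeR adjusted p = 0.0203), in Reloading against Unloading by 0.95 (SE 0.113, edgeR adjusted p = 1.62e-05) and in Reloading against Control by 1.39 (SE 0.0995, edgeR adjusted p = 6.76e-08). The first of these calls depended on Unloading 1, without which it was -0.28 (edgeR adjusted p = 0.325). Tfrc was then the 1 member still called in Unloading against Control.

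Fibre markers are set beside Mb. The 8 slow fibre markers, such as Myh7 and Tnnt1, summed to 837 to 1385 CPM in Control, 716 to 1165 in Unloading and 613 to 697 in Reloading, and 3 of the 8 were called lower in Reloading than in Unloading, 2 in Unloading than in Control and 6 in Reloading than in Control. Of the 10 muscle fibre markers, 8 were called lower in each comparison with Reloading, and 2 were called higher and 2 lower in Unloading against Control. Of all genes, 19.0% were called lower in Reloading against Unloading and 21.3% in Reloading against Control. In Unloading against Control 4.40% of all genes were called higher and 5.50% lower. The part of fibre content in the values of Mb was not tested. Set against the summed muscle fibre markers, Mb averaged 8.23 ± 0.346 CPM per 1000 CPM of markers (SD, n = 4) for Control, 5.86 ± 0.907 (SD, n = 2) for Unloading and 4.27 ± 0.329 (SD, n = 3) for Reloading. On this scale too the 3 groups did not overlap. The 10 markers include genes of fast fibres, such as Myh4 and Actn3, so the scale does not account for slow fibre content. The slow fibre markers summed to 1165 CPM in Unloading 1 and 716 in Unloading 2, and Unloading overlapped Control in them. Mb was not set against the slow fibre markers. Cygb, which encodes the related globin cytoglobin of connective tissue cells, rose in Reloading against Control by 0.62 (SE 0.115). Apol6 overlaps Mb on the other strand, with 229 to 546 counts beside at least 7638 for Mb. The other genes that overlap a member had at most 10 counts in a library. They are Gm49540 at Mb, 4930500F10Rik at Alas1, Mir3620 at Alas2, and Gm22133 and Gm10252 at Ftl1.

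The members spanned a wide range of levels. In CPM per kb in Control, Mb stood at 1128 ± 84.3 and Fth1 at 422 ± 18.2, followed by Tfrc at 49.1 ± 7.08 and Ftl1 at 31.5 ± 2.23. Alas1 at 16.6 ± 1.20 and Fech at 12.2 ± 0.517 came next. The lowest were Slc40a1 at 3.93 ± 0.327, Flvcr1 at 3.29 ± 1.21, Hmox1 at 3.06 ± 0.506 and Alas2 at 1.37 ± 1.19 (SD, n = 4 each). The interval of mean ± SD of Flvcr1 overlapped those of Slc40a1, Hmox1 and Alas2. In Unloading Flvcr1 was at 12.6 ± 4.30 CPM per kb (SD, n = 2), beside 12.4 ± 1.41 for Alas1 and 12.9 ± 0.0895 for Fech. In CPM these means were 65.3, 76.7 and 178.9. The length used is that of all annotated exons, 5177 bases for Flvcr1, 6174 for Alas1 and 13838 for Fech. It can exceed that of the main mRNA, so the order of members per kb is uncertain.

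The wider list put these members among other genes of their roles. It was drawn up with earlier results of these data known. Of its 93 genes, 82 were tested beside Flvcr1. In Reloading against Unloading 17 were called higher and 21 lower, in Unloading against Control 3 and 9, and in Reloading against Control 17 and 30. This is 46.3%, 14.6% and 57.3% of the 82, beside the 37.5%, 9.90% and 43.5% of all genes given above. With library totals in place of TMM the splits turned to 32 higher and 11 lower for Reloading against Unloading and to 30 and 14 for Reloading against Control, with the median of all genes moved as given above. The direction of small changes in Reloading is therefore relative to the scaling, while the members called stayed at 3 higher and 4 lower and at 2 and 5. The median log2 fold changes of the list were -0.05, -0.08 and -0.13. Without Unloading 1, 1 gene of the list was called in Unloading against Control.

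Of the 9 genes of iron uptake and transport tested, 3 were called higher and 1 lower in Reloading against Unloading. In Unloading against Control the calls were 2 and 2. This is 44.4% in each, beside 37.5% and 9.90% of all genes. Slc39a14, which carries iron not bound to transferrin, had 9.43 ± 0.721 CPM in Control, 10.9 ± 0.756 in Unloading and 19.0 ± 1.10 in Reloading. It rose by 0.81 (SE 0.117) over Unloading. Slc11a2, which moves iron out of endosomes, rose by 0.48 (SE 0.105). Steap4, a metalloreductase, was higher than in Control both in Unloading, by 0.58 (SE 0.0993), and in Reloading, by 0.48 (SE 0.0900). Steap3, the reductase of transferrin endosomes, fell in Unloading by 0.31 (SE 0.0916). The mitochondrial iron carriers split. Slc25a28 rose in Unloading by 0.36 (SE 0.0887) and fell in Reloading against Unloading by 0.29 (SE 0.0930), while Slc25a37 rose in that comparison by 0.34 (SE 0.110).

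Among regulators, the 2 iron regulatory proteins moved in opposite directions in Reloading. Aco1 had 20.3 ± 1.42 CPM in Control, 19.58 ± 1.70 in Unloading and 27.0 ± 2.62 in Reloading, a rise of 0.46 (SE 0.111, edgeR adjusted p = 0.00487) over Unloading. Ireb2 had 47.0 ± 6.08, 45.5 ± 5.68 and 34.0 ± 2.66 CPM, a fall of 0.42 (SE 0.120, edgeR adjusted p = 0.0134). Hjv, the muscle-rich coreceptor hemojuvelin that acts on hepcidin in liver, was by far the most abundant regulator, with 794.5 ± 21.8, 714 ± 93.7 and 476 ± 22.1 CPM. It fell by 0.58 (SE 0.0830) from Unloading to Reloading. Hfe, a partner of the transferrin receptor, fell in Reloading against Control by 0.44 (SE 0.113). Of the 8 regulators tested, 1 was called higher and 3 lower in Reloading against Unloading.

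Iron export had 4 genes tested, Slc40a1 among them, with 1 called higher and 1 lower in each comparison with Reloading. Iron storage had 5 genes tested, Fth1 and Ftl1 among them. Reloading against Unloading called 1 storage gene higher and 2 lower, where 37.5% of all genes were called. Reloading against Control called 3 higher and 1 lower, where 43.5% of all genes were called. Unloading against Control called 0 genes of either role, where 9.90% of all genes were called. Hephl1, a copper ferroxidase, had 1, 2, 2 and 3 read pairs in Control, 0 and 1 in Unloading, and 10, 29 and 20 in Reloading, so that its size of change is poorly known although it was called. Ncoa4, the receptor that delivers ferritin to lysosomes, rose in Reloading against Control by 0.28 (SE 0.0987), and the iron chaperone gene Pcbp1 rose by 0.20 (SE 0.0777). Pcbp2, its relative, fell in Reloading against Unloading by 0.25 (SE 0.0757).

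Iron-sulfur cluster assembly was the largest group, with 26 genes tested. In Unloading against Control 0 were called higher and 3 lower, and 23 of the 26 log2 fold changes were below 0, with a median of -0.17. The 3 calls are 11.5% of the 26, beside 9.90% of all genes. Reloading against Unloading called 6 higher and 10 lower, 61.5% beside 37.5% of all genes, with a median of -0.14. Reloading against Control called 4 higher and 14 lower, 69.2% beside 43.5% of all genes, with a median of -0.31. Bola3, a late-acting assembly factor, had 92.2 ± 5.08 CPM in Control, 71.9 ± 7.54 in Unloading and 53.4 ± 3.07 in Reloading. It fell in Unloading by 0.36 (SE 0.0844) and again in Reloading against Unloading by 0.43 (SE 0.0884). Ciao2b, of the cytosolic targeting complex, fell in Unloading by 0.41 (SE 0.0919) and rose in Reloading by 0.46 (SE 0.0956). Isca1, a mitochondrial assembly factor, and Abcb8, a mitochondrial transporter, fell in Reloading against Unloading by 0.54 (SE 0.0802) and 0.51 (SE 0.0881), while Nubp1, a cytosolic scaffold, rose by 0.54 (SE 0.178).

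**Figure D5:**
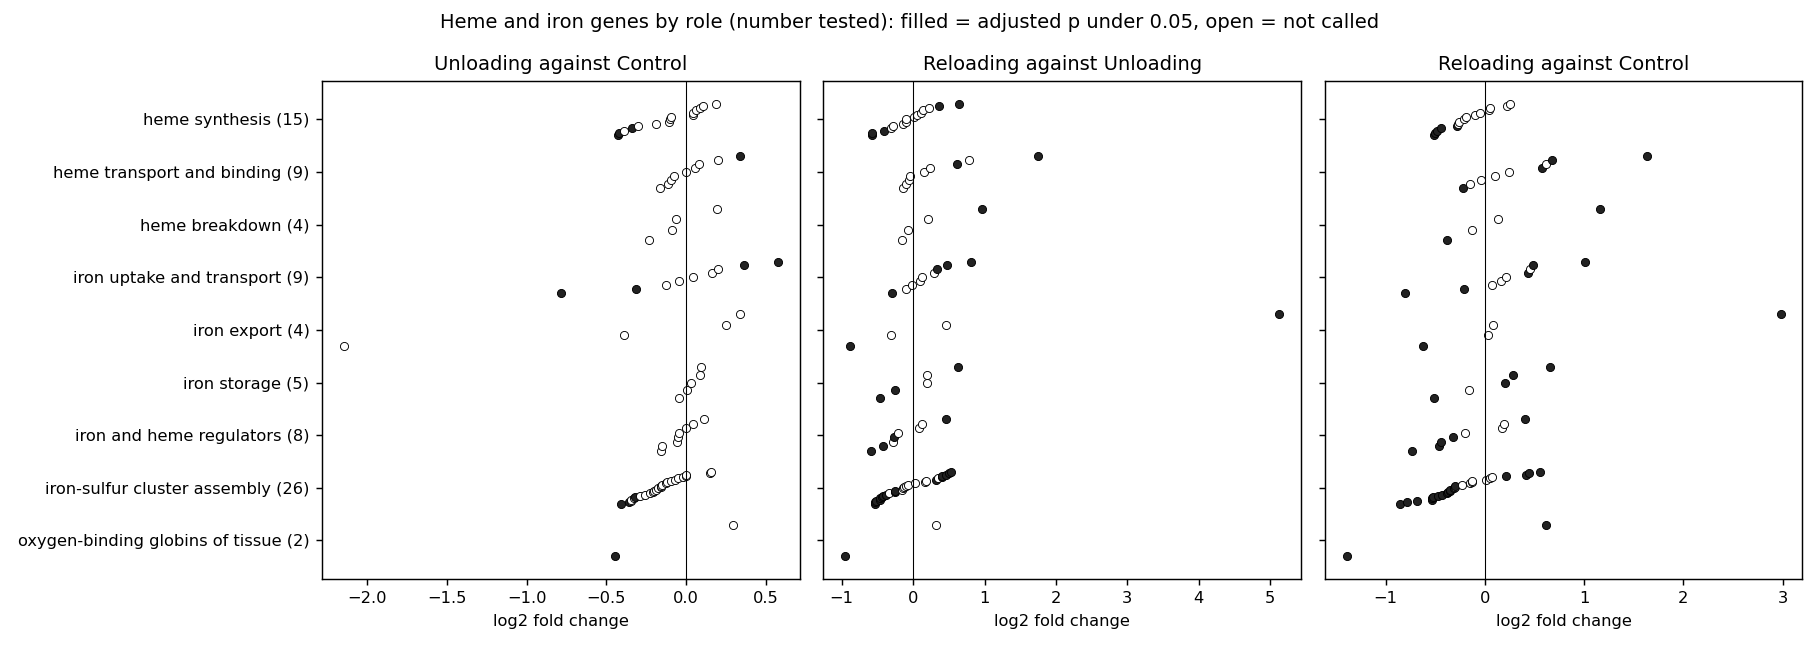
Log2 fold changes of the 82 heme and iron genes tested beside Flvcr1, by role with the number of genes tested, with filled points for genes called at an adjusted p under 0.05 and open points for the rest, and a horizontal axis that differs between panels. In Unloading against Control 23 of the 26 iron-sulfur genes lie below 0, and the point above 5 in Reloading against Unloading is Hephl1, which had at most 3 read pairs in each Control and Unloading library.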

How the data were processed

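RNA selected for poly-A tails was sequenced from 9 gastrocnemius muscles. Per the labels and file headers the authors aligned reads with STAR 2.7.3a to GRCm38.p6 and deposited raw counts of read pairs per gene from featureCounts 2.0.3, without strand, on the Ensembl release 102 annotation. The methods speak of single reads, while the labels and the counting command give pairs. The authors' comparison tables hold shrunken fold changes and p-values from DESeq2. Only gene symbols were taken from them.

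The test was edgeR 4.0.16 under R 4.3.3. Genes passed filterByExpr (minimum count 10, minimum total 15), which kept 14851 of 34376 genes with counts. One quasi-likelihood fit (glmQLFit, glmQLFTest, two-sided) held all 9 libraries with group as the only term and TMM scaling (trimmed mean of M-values). Benjamini-Hochberg adjustment of p-values ran over all genes tested, threshold 0.05. SE of log2 fold changes come from the F statistic, and the biological coefficient of variation was 0.0927. The fit was checked on simulated counts. Alternatives used DESeq2 1.42.0, other scalings, filters, libraries and blocks. Whether replicates were separate cages is not given, and p-values measure the spread between these libraries. No 2 libraries of a group agreed within sampling noise (chi-square per gene 3.43 to 8.40).

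Replicate numbers in titles and in descriptions differ. Deviations from group means of libraries sharing a title number correlated at -0.201 to 0.0752. For description numbers the 3 Control and Reloading pairs correlated at 0.142 to 0.361, and those with Unloading at 0.0172 to 0.0752. The 0.361 was that of Control 2 with Reloading 1, both of which held skin markers. Whether these numbers mark paired mice is not given.

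The 10 members, the list of 93 genes in 9 role classes and 7 marker lists were chosen with earlier results of these data known. Named are all members, up to 3 called genes per class and comparison with the largest change, the 5 genes most like Flvcr1, its tested neighbours within 250 kb, and overlapping genes and pseudogenes, except for a gene that is not reported here. Of the listed genes 10 did not pass the filter, and Ahsp was not matched. Neutrophil markers summed to at most 5.85 CPM in a library.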

Additional observations from a re-analysis of the deposited data

Results flagged for a closer look

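In 3 genes, 1 of the 4 Control libraries lay apart from the rest, with a gap to the nearest library above Dixon's critical share of the range, out of 40 genes looked at. Chance alone sets about 1 group in 20 apart in this way. Hmox1 stood at 4.03 CPM in Control 4, against 5.74 to 5.85 in the other 3. Alas2 stood at 7.54 CPM in Control 1, against 1.54 to 2.43, and red cell markers were also highest in that library at 165 CPM. Fech stood at 179 CPM in Control 1, against 164 to 166, which is the level of the Unloading libraries. No cause was tested for these values.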

How the results depend on the processing

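Of 492 tested member values under alternatives, 459 kept direction and side of the threshold, 5 lost a call, 2 gained one and 26 changed sign, and none of these 26 was called in the alternative or as reported. Flvcr1 ranged from -2.48 to -1.77 in Reloading against Unloading and from 1.55 to 2.26 in Unloading against Control. With 2 Unloading libraries, leaving out 1 decided calls. For Unloading against Control, leaving out single libraries gave 120 to 1455 genes called (947 without Control 3, 120 without Unloading 1), 1 to 12 heme and iron genes and 1 to 3 members, where a single Unloading library is assumed to vary like the other groups. Small counts limit Alas2 and Hephl1.

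Leaving out single libraries moved values not called across 0. In Reloading against Unloading, Tfrc ran from -0.0625 to 0.0263 and Alas2 from -0.77 to 0.63. Against Control in Unloading, Hmox1 ran from -0.12 to 0.42, Alas2 from -0.73 to 0.89 and Ftl1 from -0.0913 to 0.14. In Reloading against Control, Alas2 ran from -0.40 to 0.61 and Flvcr1 from -0.38 to 0.0561. With library totals alone, Tfrc was 0.23 in Reloading against Unloading, and Alas1 (0.19), Alas2 (0.14) and Flvcr1 (0.0126) were above 0 in Reloading against Control. Without Control 2 and Reloading 1, Tfrc was 0.0263 in Reloading against Unloading and Alas2 -0.0134 in Unloading against Control.

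With a replicate block by title number, Slc40a1 was called in Unloading against Control (0.40, edgeR adjusted p = 0.0405) and Mb was not (-0.36, edgeR adjusted p = 0.0681). Values not called that changed sign were Tfrc (0.0339) in Reloading against Unloading and Hmox1 (-0.0803), Alas2 (-0.0919) and Ftl1 (-0.0259) in Unloading against Control. With the block by description number, Slc40a1 was called in Unloading against Control (0.37, edgeR adjusted p = 0.0204), and Alas2 (0.36) and Tfrc (0.11) in Reloading against Unloading, Hmox1 (-0.0337) and Alas2 (-0.19) in Unloading against Control, and Alas2 (0.17) in Reloading against Control changed sign. For Reloading against Control, where libraries sharing a description number correlated most, this block changed no member's call. It called 52 heme and iron genes in place of 47.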
